A study of Mus musculus with 8 samples.

Results

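Natural killer T (NKT) cells from the mouse thymus were compared with and without Ezh2, over 3 subsets told apart by CD44 and NK1.1 on their surface. The comparison rests on all 8 libraries of the series. These were 4 WT and 4 Ezh2-KO libraries on the C57BL/6 strain background, and subset was held as a blocking factor. Each genotype had 2 biological replicates of CD44+ NK1.1- cells, 1 library of CD44- NK1.1- cells and 1 library of CD44+ NK1.1+ cells. The genes described here are chiefly those that differed by genotype and moved in the same direction in every subset. They number 1527 of the 13794 genes that passed the filter on low counts. Counts of rises and falls by gene list take in all 1561 genes that differed by genotype, of which 34 were mixed in direction. The labels do not state how or in which cells Ezh2 was deleted or how old the mice were, and nothing says whether the subsets of a genotype came from the same animals.

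Ezh2 is the catalytic subunit of Polycomb repressive complex 2 (PRC2), which methylates lysine 27 of histone H3. In mammals this mark lies mostly over CpG-rich promoters of genes that a cell keeps silent, among them many regulators of embryonic development. NKT cells are T cells with a semi-invariant T cell receptor for lipids presented by CD1d. In the thymus, CD44- NK1.1- cells are commonly placed before CD44+ NK1.1- cells, and CD44+ NK1.1+ cells are commonly placed last. The transcription factor PLZF, encoded by Zbtb16, directs their development.

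Levels are given as CPM (counts scaled to a common library size) after TMM scaling. Library totals ran from 20308745 to 22995090 counts, so that 3 counts, which bound a gene without any read, equal 0.129 to 0.151 CPM. These limits cover counting error alone. NKT cell genes were present in all libraries: Zbtb16 lay between 114 and 449 CPM and Cd3e between 380 and 621 CPM. Summed markers of B cells did not pass 4.78 CPM in any library, those of thymic epithelial cells 5.83 CPM, those of dendritic cells 10.5 CPM and those of myeloid cells 30.3 CPM, and Pax5, Krt5 and Clec9a were at 0 in all but 1 library each. Markers of double-positive thymocytes summed to 73.3 to 132 CPM, highest in WT CD44+ NK1.1- replicate 1, and those of regulatory T cells to 129 to 228 CPM. The regulatory T cell sum was chiefly Ikzf2 (74.1 to 189 CPM) and Tnfrsf18 (32.1 to 131 CPM), and Foxp3 did not pass 0.676 CPM in any library. WT CD44+ NK1.1- replicate 1 stood apart from its replicate. Its 22 immediate early genes summed to 5096 CPM against 1520 CPM in replicate 2, and 341 genes differed more than 2-fold between these libraries. In the Ezh2-KO pair of the same subset 31 genes did. The summed erythroid markers, chiefly Hba-a1, were 0.899 to 1.29 CPM in the WT libraries. They were 17.3, 51.1 and 18.1 CPM in 3 Ezh2-KO libraries and 0.450 CPM in Ezh2-KO CD44+ NK1.1- replicate 2. Mef2c, a rise described below, was at 42.1 CPM in that replicate and 43.8 CPM in its partner. The part of the erythroid markers in the results was not tested.

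The labels were checked first on Ezh2 itself (chr6:47530274-47595270 in GRCm38). Its level in CD44- NK1.1- cells was 109 CPM in WT and 78.4 CPM in Ezh2-KO. In CD44+ NK1.1- cells it was 113 and 136 CPM in WT and 83.3 and 77.9 CPM in Ezh2-KO. In CD44+ NK1.1+ cells it was 57.2 CPM in WT and 40.4 CPM in Ezh2-KO. Every Ezh2-KO library was below the WT libraries of its subset, and Ezh2 fell by 0.56 on the log2 scale (SE 0.0740, adjusted p = 0.00402, edgeR quasi-likelihood test). Reads were counted over the whole gene. The part of the gene that was removed is not given in the sources used here, so that these levels do not measure an intact message. CD44+ NK1.1+ cells held the least Ezh2 in both genotypes.

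The other PRC2 genes did not pass the test with all 8 libraries. Among the 11 tested, Ezh2 alone fell and none rose, and their median log2 fold change was -0.05 against -0.01 over all genes tested. Suz12, which the complex needs for assembly, was at 232 to 285 CPM in WT and 242 to 274 CPM in Ezh2-KO (adjusted p = 0.797). Eed, which binds the methylated histone tail, was lower in each subset, by 0.21 to 0.23 on the log2 scale, with adjusted p = 0.110. Without WT CD44+ NK1.1- replicate 1 it was called lower (adjusted p = 0.00468), which made 2 falls in the list. Ezh1, the second catalytic subunit, had adjusted p = 0.328.

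PRC1, the Polycomb complex that binds the PRC2 mark and compacts chromatin, had 2 members that rose and 3 that fell, of 20 tested (median -0.05). Over all genes tested, 6.43% rose and 4.89% fell. Bmi1, a RING finger subunit, was at 92.9 CPM in the WT CD44- NK1.1- library and 129.7 CPM in the Ezh2-KO one. In CD44+ NK1.1- cells its level went from 67.0 and 62.4 CPM in WT to 136 and 132 CPM in Ezh2-KO, and in CD44+ NK1.1+ cells from 49.4 to 79.4 CPM. The groups did not overlap in any subset (log2 fold change 0.82, SE 0.101, adjusted p = 0.00351). Scmh1, a Polycomb protein of the SCM family, rose from 8.30 to 12.5 CPM over the WT libraries to 22.4 to 31.0 CPM over the Ezh2-KO libraries (log2 fold change 1.26, adjusted p = 0.00361). The calls of Bmi1 and Scmh1 stood in each of the 8 fits with 1 library left out. Phc3 and Cbx8 fell, and their calls were lost without Ezh2-KO CD44+ NK1.1- replicate 2, without either CD44+ NK1.1+ library and without either CD44- NK1.1- library (adjusted p up to 0.1 and 0.0924). The call of Cbx8 was also lost without WT CD44+ NK1.1- replicate 2 or Ezh2-KO CD44+ NK1.1- replicate 1.

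Other chromatin enzymes were more often lower than higher. A list of H3K27 demethylases and H3K4 methyltransferases also took in Ash1l, and of its 9 genes 4 fell and none rose (median -0.40). Of 7 genes for DNA methylation and its removal, 4 fell and none rose (median -0.33). Over all genes tested, 4.89% fell. Ash1l, a histone methyltransferase of the Trithorax group, was at 47.3 to 72.8 CPM in WT and 35.2 to 55.8 CPM in Ezh2-KO, lower in every subset (log2 fold change -0.43, adjusted p = 0.00864). Tet3, which oxidises methylated cytosine, had a log2 fold change of -0.37 (adjusted p = 0.00745) and had 102 to 115 CPM in WT and 75.6 to 93.7 CPM in Ezh2-KO, without overlap. The calls of Ash1l and Tet3 stood with any library left out. The other falls were Setd1b, Kmt2a and Kdm6a in the first list and Tet1, Tet2 and Dnmt3b in the second. None of these calls stood in every fit with 1 library left out, so that Ash1l held the only such call of the first list. With 1 library left out, the falls in the first list numbered 1 without either Ezh2-KO CD44+ NK1.1- replicate, 2 without either CD44- NK1.1- library and 7 without WT CD44+ NK1.1- replicate 1. In the second list 1 was left without Ezh2-KO CD44+ NK1.1- replicate 2 or either CD44+ NK1.1+ library, and 2 without WT CD44+ NK1.1- replicate 2, without Ezh2-KO CD44+ NK1.1- replicate 1 or with libraries scaled by size alone.

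Over all genes, more rose than fell, and the rises were larger. In the fit with subset and genotype, 887 genes were higher in Ezh2-KO at an adjusted p under 0.05 (6.43% of those tested) and 674 were lower (4.89%). The estimated fold passed 2 for 465 of the 860 called genes that were higher in all 3 subsets (6.23% of those tested), and for 76 of the 667 that were lower in all 3 (4.84%). A difference above 2-fold in each subset by itself was seen for 133 of these rises and 15 of these falls. The rising genes started low. Their median WT level was 3.59 CPM, against 57.9 CPM for the falling genes and 24.6 CPM for all genes tested, and 33.8% of the called rises had a WT mean below 1 CPM, against 1.34% of the falls and 14.1% of all genes tested. WT levels enter the fold, and a gene low in WT can pass the filter through Ezh2-KO alone, which favours rises among such genes. These figures are therefore a description.

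The calls depended on which libraries entered the fit. CD44- NK1.1- and CD44+ NK1.1+ cells had 1 library per genotype. Without either library of such a subset, the subset no longer adds to the genotype estimate. The fits without its WT or its Ezh2-KO library therefore nearly coincide, and the 8 fits with 1 library left out are not 8 separate checks. Of the 1561 calls, 452 stood in each of the 8 fits with 1 library left out, 311 rises and 141 falls, and no called gene changed direction in any of the 8. The counts were lowest without Ezh2-KO CD44+ NK1.1- replicate 2 (342 higher, 147 lower) and next without its partner (376 and 202). Without WT CD44+ NK1.1- replicate 1 they were 1273 and 1521. Without WT CD44+ NK1.1- replicate 2 they were 564 and 434, without the WT or Ezh2-KO CD44+ NK1.1+ library 568 and 379 or 564 and 380, and without the WT or Ezh2-KO CD44- NK1.1- library 801 and 443 or 810 and 403. Genes whose call stood with any library left out are given first in what follows.

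**Figure D1:**
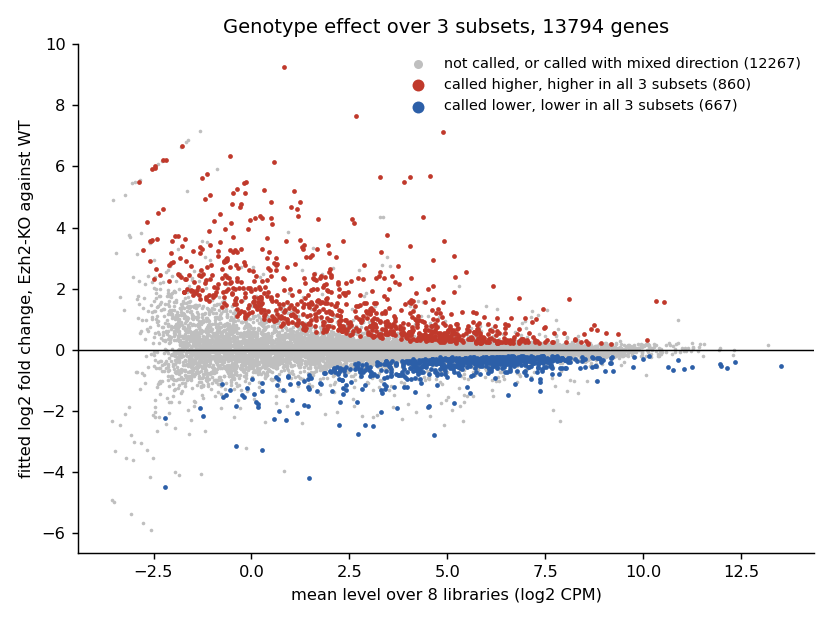
Each point is 1 of 13794 genes, placed by its mean level over the 8 libraries (log2 CPM, x axis) and its fitted log2 fold change between Ezh2-KO and WT (y axis). The 860 genes called higher and higher in every subset (red) reach low levels and large folds, while the 667 called lower and lower in every subset (blue) lie mostly at higher levels and closer to 0.

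Direction held across the subsets for nearly all calls. Of the 887 called rises, 860 were higher in each subset, and of the 674 called falls, 667 were lower in each. Over all genes tested, 22.9% were higher in all 3 subsets and 23.7% lower. In 857 of the called rises and 666 of the called falls the WT and Ezh2-KO libraries did not overlap within any subset, against 15.5% and 14.5% of all genes tested. These shares are partly set by the test, since all 8 libraries enter it.

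An independent reading used the CD44+ NK1.1- cells for the calls and the other 4 libraries for the direction. With those 4 libraries alone, 554 genes were called higher and 150 lower of 13039 tested (4.25% and 1.15%). Of the 554, 472 (85.2%) were also higher in both CD44- NK1.1- and CD44+ NK1.1+ cells. Of the 150, 133 (88.7%) were also lower in both. Among all genes that were higher or lower in CD44+ NK1.1- cells, the shares were 45.0% and 49.1%. The median difference of the 554 was 0.66 on the log2 scale in CD44- NK1.1- cells and 0.92 in CD44+ NK1.1+ cells, and that of the 150 was -0.57 and -0.50. Genes called at an adjusted p under 0.01 kept their direction in both other subsets in 90.9% of rises and 91.7% of falls. No library served both for a call and for the reading of its direction. Whether animals were shared between subsets is not given in the sources used here.

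**Figure D2:**
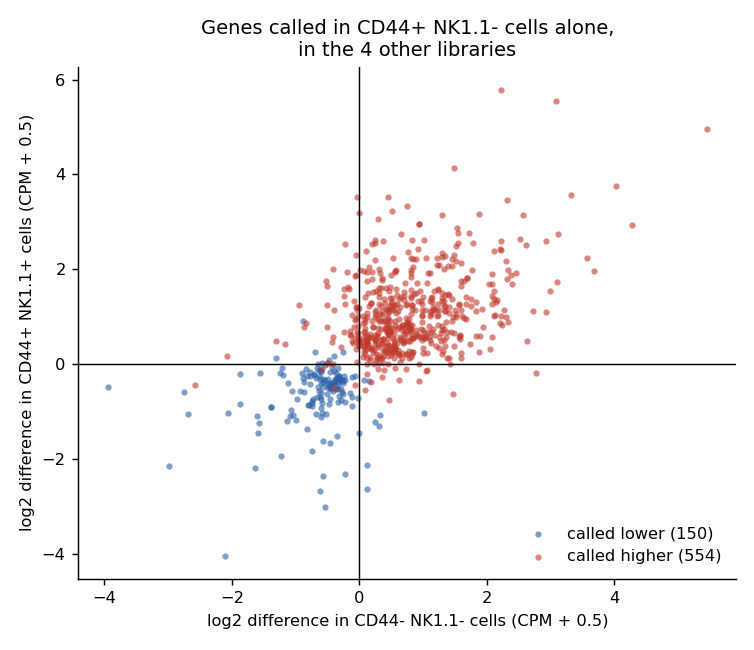
Genes called from the 4 CD44+ NK1.1- libraries alone, placed by their log2 difference (Ezh2-KO minus WT, CPM + 0.5) in CD44- NK1.1- cells (x axis) and CD44+ NK1.1+ cells (y axis), which had 1 library per genotype each. Of the 554 rises (red) 472 lie in the upper right, and of the 150 falls (blue) 133 lie in the lower left.

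The largest rises among abundant genes encoded transcription factors, growth regulators, guidance receptors and NK cell receptors. Mef2c, a MADS box transcription factor known from muscle, neurons and B cells, was low in WT, at 0.809 CPM in CD44- NK1.1-, 0.451 and 0.946 CPM in CD44+ NK1.1- and 0.241 CPM in CD44+ NK1.1+ cells. In Ezh2-KO it was at 20.9 CPM, 43.8 and 42.1 CPM, and 9.5 CPM in the same order. Mef2c rose 45.2-fold in the fit (log2 fold change 5.50, SE 0.254, adjusted p = 8.67e-05), and its lowest Ezh2-KO library was above all WT libraries. Tcf24, a basic helix-loop-helix factor, was at 0 to 0.135 CPM in WT and at 3.72 to 20.2 CPM in Ezh2-KO (log2 fold change 7.65, adjusted p = 0.000142). Eomes (chr9:118478186-118486132), the T-box factor of NK cells and memory T cells, was at 0.405 CPM in WT CD44- NK1.1- cells, 0.451 and 0.516 CPM in CD44+ NK1.1- cells and 0.820 CPM in CD44+ NK1.1+ cells. In Ezh2-KO it was at 3.71 CPM, 27.2 and 26 CPM, and 72.2 CPM. It rose 50.5-fold in the fit (log2 fold change 5.66, SE 0.384, adjusted p = 0.000730), and its difference was 2.22, 4.78 and 5.78 on the log2 scale in the 3 subsets in that order. All 3 calls stood with any library left out.

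Eomes, Klra4 and Klra8, described below, also belong to a list of 10 markers of NK and innate lymphoid cells. These 3 rose, and none of the other 7 passed the test. Cd7, an immunoglobulin-like receptor of T and NK cells, Prf1, which encodes perforin, and Fcer1g, a signalling chain of NK and Fc receptors, were lower without overlap in every subset (adjusted p = 0.0542, 0.136 and 0.186). Gzma went the other way and was higher without overlap in every subset. It went from 44.9 and 17.6 CPM to 59.9 and 67.4 CPM in CD44+ NK1.1- cells. In CD44- NK1.1- cells Gzma went from 21.9 to 70.9 CPM and in CD44+ NK1.1+ cells from 338 to 501 CPM. Cd7 went from 321 and 224 CPM to 79.5 and 83.9 CPM in CD44+ NK1.1- cells, from 63.7 to 17.0 CPM in CD44- NK1.1- cells and from 974 to 838 CPM in CD44+ NK1.1+ cells. In the model with group means it fell in CD44+ NK1.1- cells (adjusted p = 0.00725). The list summed to 125 to 2749 CPM in the WT libraries and 114 to 3294 CPM in the Ezh2-KO libraries, and within CD44+ NK1.1- cells to 629 and 331 CPM in WT against 259 and 261 CPM in Ezh2-KO. Klrb1c, which encodes NK1.1, was lower in CD44+ NK1.1- and CD44- NK1.1- cells and higher in CD44+ NK1.1+ cells without Ezh2 (adjusted p = 0.329). Many of these markers are also expressed by NKT cells.

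Regulators of fetal growth had 6 rises and 2 falls among 11 tested genes, a median log2 fold change of 1.33 against -0.01 over all genes. Over all genes tested, 6.43% rose and 4.89% fell. Of the 6 rises in the list, 5 were higher in every subset. Grb10 (chr11:11930499-12037428), an imprinted adaptor that restrains insulin and growth factor signals, was at 0.674 CPM in WT CD44- NK1.1-, 0.316 and 0.215 CPM in CD44+ NK1.1- and 0.193 CPM in CD44+ NK1.1+ cells. It was at 11.3 CPM, 30.4 and 27 CPM, and 7.69 CPM in Ezh2-KO (log2 fold change 5.66, SE 0.403, adjusted p = 0.000730). Plag1, a zinc finger activator of growth genes, was among the most even rises, with differences of 3.12, 2.96 and 2.73 on the log2 scale in CD44- NK1.1-, CD44+ NK1.1- and CD44+ NK1.1+ cells. Its level was 0.496 to 1.35 CPM in WT and 7.61 to 11.8 CPM in Ezh2-KO (adjusted p = 8.67e-05). Lin28b, which blocks maturation of let-7 microRNAs and marks fetal lymphocytes, was at 0 to 0.172 CPM in WT and 0.720 to 2.11 CPM in Ezh2-KO (adjusted p = 0.00712). Dlk1, an imprinted Notch-like membrane protein, rose from 1.01 to 6.92 CPM in WT to 3.12 to 25.3 CPM in Ezh2-KO, higher within each subset (log2 fold change 1.75, adjusted p = 0.00116). Igf2, the fetal insulin-like growth factor, went the other way. It was at 2.61 to 6.25 CPM in WT and 0.550 to 1.16 CPM in Ezh2-KO, and had a log2 fold change of -2.05 (adjusted p = 0.00852). These 5 calls stood with any library left out. Rises in the list numbered 4 without either Ezh2-KO CD44+ NK1.1- replicate.

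Of 89 developmental transcription factors, homeobox genes among them, 10 passed the filter on low counts, and of these 5 rose and 1 fell. The filter lets a gene pass through the group where it is high, so this count is not a share of the list. The same limit holds for the other lists of which only part passed the filter. Mef2c and Tcf24 are members. Lhx2, a LIM homeobox factor, fell from 0.579 to 1.68 CPM in WT to 0.151 to 0.495 CPM in Ezh2-KO (adjusted p = 0.00713). Mef2c, Tcf24 and Lhx2 kept their calls with any library left out, and 2 rises were left without either Ezh2-KO CD44+ NK1.1- replicate, against 3 without either CD44+ NK1.1+ library. The remaining rises were Snai2, Tbx3 and Barx2. Snai2 reached at most 2.16 CPM in any library. Tbx3 and Barx2 had no reads in the 4 WT libraries and 23 and 54 counts in the Ezh2-KO ones. They had no reads in the Ezh2-KO CD44- NK1.1- library either, so that their direction was not the same in every subset.

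Guidance receptors and ligands of the nervous system had 6 rises and 2 falls among 25 tested semaphorins, plexins, netrin and Slit pathway genes (median 0.05). The shares over all genes tested were 6.43% and 4.89%. Of 40 listed genes 25 passed the filter, which a gene can pass through Ezh2-KO alone, so these counts are not shares of the list. There were 3 rises and no fall without either Ezh2-KO CD44+ NK1.1- replicate, 4 rises without either CD44+ NK1.1+ library, no fall without either CD44- NK1.1- library and 4 falls without WT CD44+ NK1.1- replicate 1. Neo1, a receptor for netrin and repulsive guidance molecules, was at 4.72 CPM in WT CD44- NK1.1-, 0.721 and 0.688 CPM in CD44+ NK1.1- and 1.06 CPM in CD44+ NK1.1+ cells. It was at 30.5 CPM, 20.1 and 16.2 CPM, and 13.3 CPM in Ezh2-KO (log2 fold change 3.75, SE 0.340, adjusted p = 0.00162). The netrin receptor Unc5c was at 0.0430 to 0.225 CPM in WT. It reached 8.21 and 7.11 CPM in Ezh2-KO CD44+ NK1.1- cells and 0.550 and 0.704 CPM in the other Ezh2-KO libraries (adjusted p = 0.00855). Plxna3, a semaphorin coreceptor, was already expressed in WT, at 11.8 to 28.4 CPM, and rose by 0.75 on the log2 scale (adjusted p = 0.00380). The calls of these 3 stood with any library left out. Robo1, the receptor for Slit proteins, rose from 0.0965 to 8.27 CPM in WT to 2.26 to 32.2 CPM in Ezh2-KO, above WT within each subset (adjusted p = 0.0251). Its call was lost without any 1 of the 4 CD44+ NK1.1- libraries or without either CD44+ NK1.1+ library (adjusted p up to 0.101).

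Epha3 (chr16:63543532-63864175), an Eph receptor tyrosine kinase for membrane-bound ephrins, had the largest fold of the called genes with at least 16 CPM in the higher genotype and no overlap in any subset. It was at 2.70 CPM in WT CD44- NK1.1- cells, 0.180 and 0.473 CPM in CD44+ NK1.1- cells and 0.386 CPM in CD44+ NK1.1+ cells. In Ezh2-KO it was at 26.8 CPM, 62.1 and 56.2 CPM, and 40.7 CPM. Every Ezh2-KO library lay above every WT library (log2 fold change 5.70, SE 0.800, adjusted p = 0.0157). The spread between subsets was wide, and the adjusted p passed 0.05, up to 0.0623, without either Ezh2-KO CD44+ NK1.1- replicate, WT CD44+ NK1.1- replicate 2 or either CD44+ NK1.1+ library. Of 20 Eph receptors and ephrins listed 11 passed the filter, and of these Epha3 and Ephb3 rose and none fell. Over all genes tested, 6.43% rose and 4.89% fell. A gene can pass the filter through Ezh2-KO alone, so this count is not a share of the list. No rise was left without either Ezh2-KO CD44+ NK1.1- replicate, WT CD44+ NK1.1- replicate 2 or either CD44+ NK1.1+ library, and 1 was left without either CD44- NK1.1- library.

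Wnt pathway genes had more rises than falls, and BMP and TGF-beta pathway genes had as many of each. Ryk, a Wnt receptor with an inactive kinase domain, was at 33.1 CPM in WT CD44- NK1.1-, 9.33 and 11.1 CPM in CD44+ NK1.1- and 6.70 CPM in CD44+ NK1.1+ cells. Ezh2-KO libraries were at 81.9 CPM, 78.8 and 75 CPM, and 63.3 CPM (log2 fold change 2.56, SE 0.341, adjusted p = 0.00966, and 0.0504 without WT CD44+ NK1.1- replicate 1). WT cells thus differed between subsets in Ryk, and Ezh2-KO cells were all near the same level. Of 30 Wnt pathway genes tested, 8 rose and 3 fell (median 0.33), against 6.43% and 4.89% of all genes. These 30 were the genes of 45 listed that passed the filter. A gene can pass it through Ezh2-KO alone, so these counts are not shares of the list. Fzd7, a Frizzled receptor, rose from 0.965 to 4.05 CPM to 2.16 to 7.15 CPM (adjusted p = 0.00775) with any library left out. The rises numbered 2 without WT CD44+ NK1.1- replicate 2, 3 without either Ezh2-KO CD44+ NK1.1- replicate, 5 without either CD44+ NK1.1+ library and 11 without either CD44- NK1.1- library. Of 25 BMP and TGF-beta pathway genes 3 rose and 3 fell (median 0.02). No rise was left without either Ezh2-KO CD44+ NK1.1- replicate or WT CD44+ NK1.1- replicate 2, and 1 without either CD44+ NK1.1+ library, while the falls numbered 1 without either Ezh2-KO CD44+ NK1.1- replicate. Bmpr1a, a type I BMP receptor, was at 22.1 CPM in WT CD44- NK1.1- cells and 2.41 to 4.73 CPM in the other WT libraries, and at 39.7 to 43.4 CPM in all 4 Ezh2-KO libraries (adjusted p = 0.0416). Its call was lost without any CD44+ NK1.1- or CD44+ NK1.1+ library (adjusted p up to 0.134). Acvrl1, another type I receptor of the family, fell in all subsets by nearly the same amount, 1.13, 1.11 and 1.19 on the log2 scale (adjusted p = 0.00115), and did so with any library left out.

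The other genes among the 15 largest rises act on membranes, the cytoskeleton or cell polarity. Shtn1, which links actin to adhesion in growing axons, was at 0.531 to 7.91 CPM in WT and 5.88 to 47.8 CPM in Ezh2-KO, higher within each subset (log2 fold change 3.41, adjusted p = 0.000648). Amph, an amphiphysin of endocytosis, had nearly equal differences of 2.30, 2.87 and 2.17 on the log2 scale (adjusted p = 0.000127). Nrn1, a membrane-anchored protein of neurite growth, was at 0.772 to 3.51 CPM in WT and 13.5 to 64.5 CPM in Ezh2-KO (log2 fold change 4.36, adjusted p = 0.0116). The calls of Shtn1, Amph and Nrn1 stood with any library left out. Wwc1, a scaffold of the Hippo pathway, rose by 3.21 on the log2 scale and lost its call without WT CD44+ NK1.1- replicate 2 (adjusted p = 0.0592) or the WT CD44+ NK1.1+ library. Arhgap24, a GTPase activating protein of Rac, rose by 3.06 and lost its call without any 1 of the 4 CD44+ NK1.1- libraries (adjusted p up to 0.0810).

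**Figure D3:**
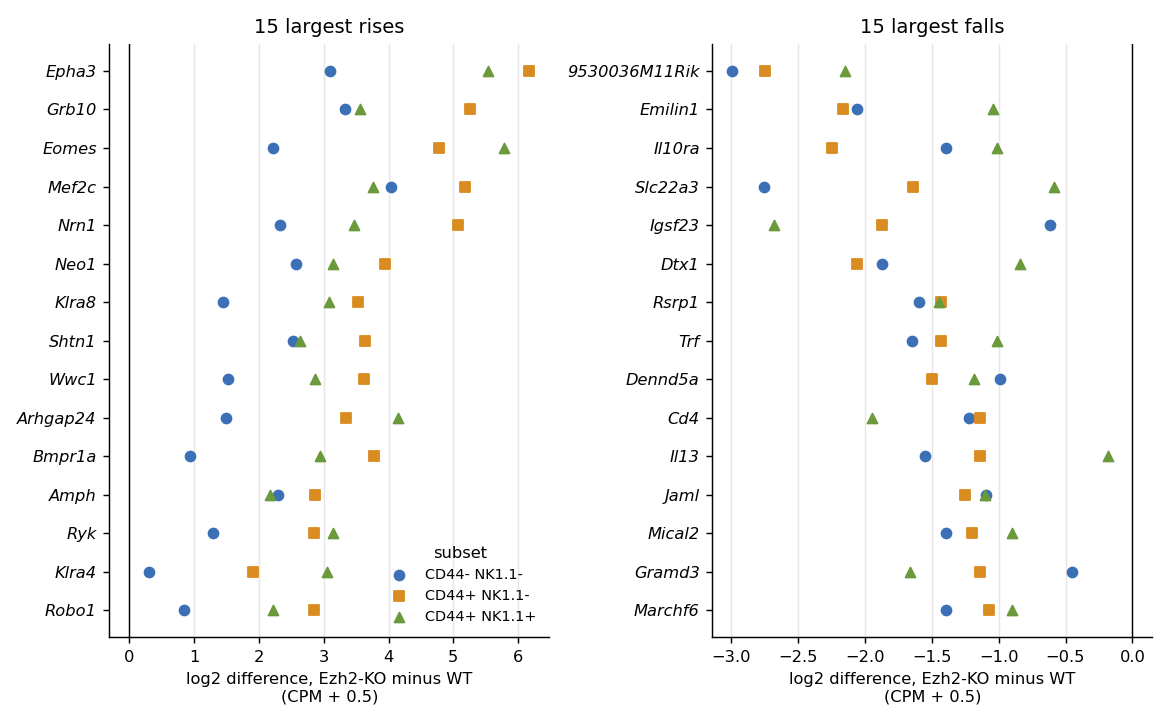
Log2 differences between Ezh2-KO and WT (CPM + 0.5, x axis) in each subset for the 15 largest rises and 15 largest falls (y axis), with CD44+ NK1.1- as the mean of 2 libraries per genotype and the other subsets as 1 library per genotype. All rises lie above 0 and all falls below 0 in every subset, which the choice of these genes required.

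Since PRC2 is known for its place at CpG-rich promoters, the DNA before 1 start site is shown for 3 of the rises and 2 of the falls, as examples. Sequences are the 250 bases upstream of 1 start per gene in the RefSeq promoter table (GRCm38.p6). They are read 5′ to 3′ on the strand of the gene, with the motif CG in capitals. For some genes the stretch lay partly or wholly inside the annotated span of the gene. This held for 17 bases of the Mef2c stretch, 173 of the Neo1 stretch and all 250 of the Bmpr1a and Robo1 stretches. The stretches of Epha3, Ryk, Rsrp1 and 9530036M11Rik lay outside it. The motif reads the same on both strands. Over the 27025 genes in that table it occurred a median of 6 times per stretch of this length, and 91.7% of stretches held it. The median was 16 over the genes tested here that are in the table. Epha3 (chr16:63864176-63864425, minus strand) had 16 matches, Ryk (chr9:102834670-102834919, plus strand) had 33 and Mef2c (chr13:83503784-83504033, plus strand) had 1. Rsrp1 (chr4:134923375-134923624, plus strand), a fall described below, had 22, and 9530036M11Rik (chr6:54152447-54152696, minus strand), the largest fall, had 1.
Epha3: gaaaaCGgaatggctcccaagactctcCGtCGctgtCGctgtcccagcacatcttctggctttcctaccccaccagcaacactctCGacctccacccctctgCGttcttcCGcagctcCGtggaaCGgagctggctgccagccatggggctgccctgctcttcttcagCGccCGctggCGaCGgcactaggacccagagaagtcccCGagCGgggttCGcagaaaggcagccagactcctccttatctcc
Ryk: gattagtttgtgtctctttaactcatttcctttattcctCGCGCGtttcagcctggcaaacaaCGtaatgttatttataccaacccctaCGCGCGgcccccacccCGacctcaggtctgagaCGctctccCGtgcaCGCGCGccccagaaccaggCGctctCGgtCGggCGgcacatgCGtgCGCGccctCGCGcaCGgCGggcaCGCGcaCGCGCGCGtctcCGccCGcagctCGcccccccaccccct
Mef2c: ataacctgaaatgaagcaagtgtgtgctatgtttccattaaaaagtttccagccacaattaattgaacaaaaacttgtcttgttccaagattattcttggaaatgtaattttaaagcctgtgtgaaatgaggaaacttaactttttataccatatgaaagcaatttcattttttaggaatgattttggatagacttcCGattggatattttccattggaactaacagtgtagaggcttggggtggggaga
Rsrp1: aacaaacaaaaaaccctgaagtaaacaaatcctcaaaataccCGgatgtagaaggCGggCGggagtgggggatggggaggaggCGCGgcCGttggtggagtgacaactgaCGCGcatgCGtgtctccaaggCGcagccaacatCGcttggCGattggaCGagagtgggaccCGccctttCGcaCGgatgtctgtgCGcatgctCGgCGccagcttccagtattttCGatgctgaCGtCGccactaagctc
9530036M11Rik: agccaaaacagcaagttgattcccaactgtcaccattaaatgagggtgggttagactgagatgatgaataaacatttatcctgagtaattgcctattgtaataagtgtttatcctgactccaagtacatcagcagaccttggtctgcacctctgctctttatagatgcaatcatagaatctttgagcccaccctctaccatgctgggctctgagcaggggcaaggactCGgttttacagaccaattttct
Among the stretches shown, high and low numbers of matches were found for genes that rose and for genes that fell. With 1 start per gene, these examples do not test a link between CpG content and direction. Which start these cells used was not tested. The table held 12 of the 15 largest rises, with a median of 14 matches, from 0 for Klra4, 3 for Klra8 and 8 for Eomes to 40 for Grb10 and 45 for Neo1. It held a promoter for 76.3% of the called rises, 73.7% of the called falls and 74.7% of all genes tested, with a median of 15, 17 and 16 matches. With fewer than 80% of the genes in the table a comparison of these groups is void.

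NK receptor genes had 3 rises and no fall among 29 tested, 10.3% against 6.43% of all genes, and their median was -0.11. Of the 3 rises, 2 were higher in every subset. Without WT CD44+ NK1.1- replicate 1 9 rose and the median was 0.55 (log2 fold change), and without WT CD44+ NK1.1- replicate 2 5 rose. Without either CD44+ NK1.1+ library it was -0.49 at the highest. Klra8 and Klra4 encode activating receptors of the Ly49 family. Klra8 (chr6:130115226-130129898) was at 0.0899 CPM in WT CD44- NK1.1-, 2.70 and 0.387 CPM in CD44+ NK1.1- and 19.6 CPM in CD44+ NK1.1+ cells. In Ezh2-KO it was at 1.1 CPM, 23.5 and 22.9 CPM, and 169.7 CPM (log2 fold change 3.55, SE 0.463, adjusted p = 0.00896). Klra4 rose from 0.315 to 5.64 CPM in WT to 0.504 to 50.4 CPM in Ezh2-KO (log2 fold change 2.43, adjusted p = 0.00370). Both rose with any library left out, and in both genotypes their level was highest in CD44+ NK1.1+ cells. Members of this family are close copies of each other, and how the counting treated reads that fit several of them is not given in the sources used here, so the split between members is uncertain.

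**Figure D4:**
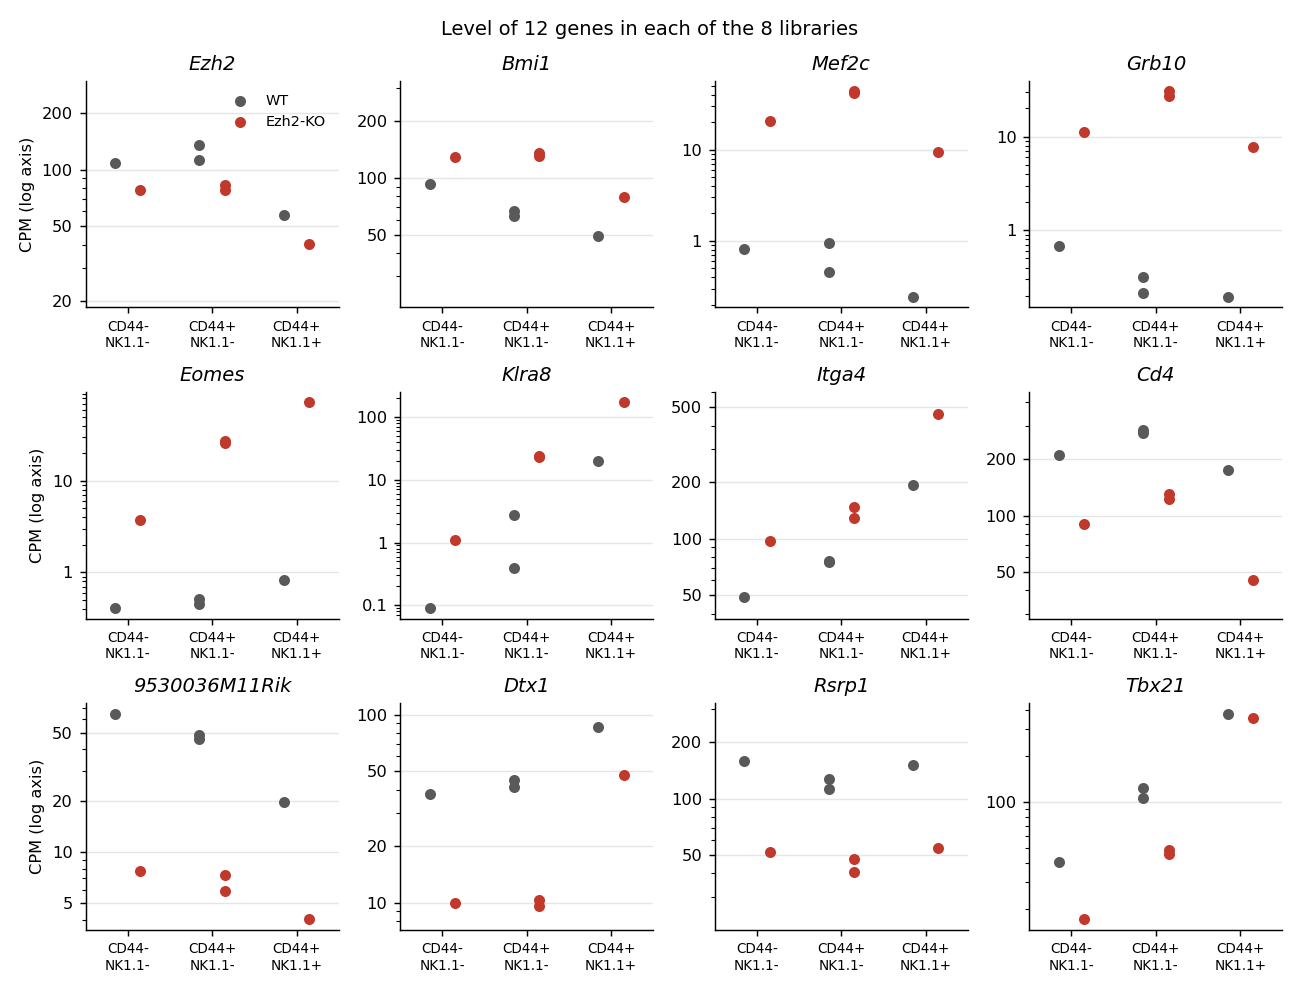
CPM (log axis) of 12 genes in each of the 8 libraries, by subset, with WT in grey and Ezh2-KO in red; each point is 1 library. Mef2c, Grb10 and Eomes stay below 1 CPM in all WT libraries, Cd4, Dtx1, Rsrp1 and 9530036M11Rik are lower in Ezh2-KO in each subset, and Tbx21 differs little in CD44+ NK1.1+ cells.

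The falling genes were mostly expressed in WT cells and fell by smaller folds. Rsrp1, an arginine and serine rich protein gene, was at 159 CPM in WT CD44- NK1.1-, 113 and 127 CPM in CD44+ NK1.1- and 150.2 CPM in CD44+ NK1.1+ cells. It was at 52.3 CPM, 40.5 and 47.6 CPM, and 54.8 CPM in Ezh2-KO. Its differences of -1.60, -1.43 and -1.45 on the log2 scale were close to each other (log2 fold change -1.49, SE 0.0752, adjusted p = 8.67e-05). 9530036M11Rik (chr6:54137935-54152446) was at 64.9 CPM, 48.5 and 45.8 CPM, and 19.5 CPM in WT and at 7.75 CPM, 5.92 and 7.29 CPM, and 4.02 CPM in Ezh2-KO, in the same order. It fell by 2.77 on the log2 scale (SE 0.136, adjusted p = 8.67e-05). Marchf6, a ubiquitin ligase of the endoplasmic reticulum, was at 123 to 170.3 CPM in WT and 54.3 to 90.9 CPM in Ezh2-KO, without overlap (log2 fold change -1.11, adjusted p = 0.000885). Jaml, a junctional adhesion molecule of T cells, fell by 1.1, 1.25 and 1.1 in the 3 subsets, and Mical2, an actin oxidising enzyme, by 1.39, 1.20 and 0.90 (adjusted p = 0.00104 for each). The calls of these 5 genes stood with any library left out.

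Cd4, the coreceptor for MHC class II, was at 209.5 CPM in WT CD44- NK1.1-, 274 and 284 CPM in CD44+ NK1.1- and 175 CPM in CD44+ NK1.1+ cells. In Ezh2-KO it was at 89.6 CPM, 131 and 122 CPM, and 45.2 CPM. No Ezh2-KO library reached the lowest WT library (log2 fold change -1.36, SE 0.136, adjusted p = 0.00193). In bulk libraries fewer CD4-bearing cells and less Cd4 RNA per cell cannot be told apart. Emilin1, an extracellular matrix glycoprotein, fell from 5.69 to 24.8 CPM to 2.51 to 4.46 CPM (log2 fold change -2.03, adjusted p = 0.00195). Slc22a3, a cation transporter, was at 42.3 to 49.9 CPM in the WT NK1.1- libraries and 6.97 to 15 CPM in the Ezh2-KO ones, and at 2.36 and 1.41 CPM in CD44+ NK1.1+ cells (adjusted p = 0.00849). Dennd5a, an exchange factor for Rab GTPases, had a log2 fold change of -1.37 (adjusted p = 0.00371), and Trf, transferrin, one of -1.39 (adjusted p = 0.00841). The calls of these 5 genes stood with any library left out. Of the remaining 15 largest falls, Il10ra, the IL-10 receptor chain, went from 2.74 to 57.3 CPM to 0.733 to 28.2 CPM. Its adjusted p was 0.0495 and passed 0.05 without either CD44- NK1.1- library, either Ezh2-KO CD44+ NK1.1- replicate or WT CD44+ NK1.1- replicate 2. Igsf23 and Gramd3 fell by 1.83 and 1.13, and both lost their calls without either Ezh2-KO CD44+ NK1.1- replicate (adjusted p up to 0.0829 and 0.0689). Igsf23 also lost it without WT CD44+ NK1.1- replicate 1.

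Notch pathway genes had 6 falls and 3 rises among 25 tested (median -0.05), against 4.89% and 6.43% of all genes. The 6 falls were lower in every subset, and 2 of the 3 rises were higher in every subset. Dtx1, a ubiquitin ligase that is itself a Notch target, was at 37.8 CPM in WT CD44- NK1.1-, 41.5 and 45.0 CPM in CD44+ NK1.1- and 86.3 CPM in CD44+ NK1.1+ cells. It was at 9.99 CPM, 10.4 and 9.59 CPM, and 48.0 CPM in Ezh2-KO (log2 fold change -1.73, SE 0.217, adjusted p = 0.00469). Notch1, the receptor, was at 144 to 286 CPM in WT and 101 to 213 CPM in Ezh2-KO, lower within each subset (log2 fold change -0.64, adjusted p = 0.00713). Both calls stood with any library left out. The falls in the list were 3 without either Ezh2-KO CD44+ NK1.1- replicate and 4 without WT CD44+ NK1.1- replicate 2, either CD44+ NK1.1+ library or either CD44- NK1.1- library. No rise was left without either Ezh2-KO CD44+ NK1.1- replicate, and 1 without WT CD44+ NK1.1- replicate 2 or either CD44+ NK1.1+ library.

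Of 38 transcription factors of NKT cells, 5 rose and 5 fell (median -0.11), against 6.43% and 4.89% of all genes. These counts were 1 and 1 without Ezh2-KO CD44+ NK1.1- replicate 1, 1 and 0 without Ezh2-KO CD44+ NK1.1- replicate 2, 3 and 2 without WT CD44+ NK1.1- replicate 2, and 6 and 9 without WT CD44+ NK1.1- replicate 1. Without either CD44+ NK1.1+ library they were 3 and 6, without the WT CD44- NK1.1- library 6 and 2, and without the Ezh2-KO one 7 and 1. Eomes was the member whose call stood with any library left out. Zbtb16, the PLZF gene, did not pass the test: it was lower in Ezh2-KO in CD44- NK1.1- cells (449 CPM in WT, 344 CPM in Ezh2-KO) and higher in CD44+ NK1.1+ cells (114 and 160.0 CPM), with adjusted p = 0.789. Gata3 did not pass it either, at 134 to 167 CPM in WT and 129 to 154 CPM in Ezh2-KO (adjusted p = 0.164). Tbx21, the T-box factor of NKT1 cells, was at 40.4 CPM in WT CD44- NK1.1-, 124 and 107 CPM in CD44+ NK1.1- and 378 CPM in CD44+ NK1.1+ cells, and at 17.2 CPM, 48.7 and 45.8 CPM, and 356 CPM in Ezh2-KO. It fell by 0.96 on the log2 scale (SE 0.216, adjusted p = 0.0371). Its difference was -1.21 and -1.28 in the NK1.1- subsets and -0.09 in CD44+ NK1.1+ cells, and the test of a difference between subsets gave an adjusted p of 0.293. The call was lost without any library but the CD44+ NK1.1+ ones (adjusted p up to 0.133). The genes for IL-2 receptor beta (Il2rb, adjusted p = 0.0501) and CD44 (adjusted p = 0.0810) did not pass the test.

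Genes that define NKT1, NKT2 and NKT17 cells were called in both directions. Of 30 NKT1 genes 1 rose and 3 fell (median -0.46), of 16 NKT2 genes 3 rose and 2 fell (median 0.12), and of 24 NKT17 genes 1 rose and 3 fell (median -0.13). Over all genes tested, 6.43% rose and 4.89% fell. Of the 3 falls in the NKT1 list 2 were lower in every subset, and so were 2 of the 3 in the NKT17 list. The NKT1 median was -0.82 in the 4 CD44+ NK1.1- libraries alone and -0.26 without WT CD44+ NK1.1- replicate 1. NKT1 rises and falls numbered 0 and 0 without either Ezh2-KO CD44+ NK1.1- replicate, 0 and 5 without either CD44+ NK1.1+ library, 3 and 1 without WT CD44+ NK1.1- replicate 2, 2 and 1 or 2 and 0 without the WT or Ezh2-KO CD44- NK1.1- library, and 4 and 7 without WT CD44+ NK1.1- replicate 1. No NKT2 rise was left without either Ezh2-KO CD44+ NK1.1- replicate or WT CD44+ NK1.1- replicate 2, and 1 without either CD44+ NK1.1+ library. In the NKT17 list 1 fall was left without either Ezh2-KO CD44+ NK1.1- replicate or either CD44+ NK1.1+ library, and 2 rose without WT CD44+ NK1.1- replicate 1 or either CD44- NK1.1- library. Apart from Cd4, Il13 was the NKT2 gene whose call stood with any library left out. It was at 24.4 to 35.1 CPM in the WT NK1.1- libraries and 9.16 to 12.9 CPM in the Ezh2-KO ones, and below 1 CPM in both CD44+ NK1.1+ libraries (log2 fold change -1.22, adjusted p = 0.00626). In the NKT17 list 5830411N06Rik, a scavenger receptor gene known from gamma-delta T cells, rose from 80.5 to 117 CPM to 160.0 to 215 CPM, above all WT libraries (log2 fold change 0.92, SE 0.0650, adjusted p = 0.000450). Ccr6 fell (adjusted p = 0.00685), from 12 to 20.3 CPM to 1.76 to 4.46 CPM in the CD44+ subsets, and was under the floor of 3 counts in both CD44- NK1.1- libraries, so that it does not count as lower in every subset.

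Cytokine genes had 3 rises and 3 falls among 28 (median -0.22), and 5 falls without WT CD44+ NK1.1- replicate 1. Over all genes tested, 6.43% rose and 4.89% fell. Il21 was at 0.579 to 13.9 CPM in WT and 2.01 to 34.7 CPM in Ezh2-KO, higher in each subset (log2 fold change 1.63, adjusted p = 0.00864). Ccl3, a chemokine of activated lymphocytes, was at 0 to 1.06 CPM in WT and 0.412 to 15.2 CPM in Ezh2-KO (adjusted p = 0.00222), and Ccl4 rose as well. The annotated spans of Ccl3 and Ccl4 overlap, and without the strand setting their reads cannot be fully told apart. Tnfsf10, which encodes the death ligand TRAIL, had a log2 fold change of -0.41 (adjusted p = 0.00796). The calls of Il21, Ccl3 and Tnfsf10 stood with any library left out, and that of Ccl4 was lost without either Ezh2-KO CD44+ NK1.1- replicate or either CD44+ NK1.1+ library (adjusted p up to 0.0913).

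Receptors for cytokines and chemokines were more often lower. Of 31 cytokine receptor genes 7 fell and 1 rose (22.6% against 4.89% of all genes fell, median -0.14), and of 16 chemokine receptors 6 fell and 1 rose (median -0.29). Of the 6 falls among the chemokine receptors, 4 were lower in every subset. Il12rb1, a chain of the IL-12 receptor, fell from 129 to 161 CPM to 102 to 129 CPM, by 0.32, 0.42 and 0.33 in the 3 subsets (adjusted p = 0.00545). Tnfrsf1b, a TNF receptor, fell by 0.41 (adjusted p = 0.00423), Ifnar2, of the type I interferon receptor, by 0.34 (adjusted p = 0.00745) and Il9r by 0.97 (adjusted p = 0.00497). Ccr8 was at 48.2 to 154 CPM in WT and 31.9 to 86.6 CPM in Ezh2-KO, lower within each subset (log2 fold change -0.92, SE 0.0969, adjusted p = 0.00191). The calls of these 5 stood with any library left out. Falls among the cytokine receptors numbered 4 without Ezh2-KO CD44+ NK1.1- replicate 2 and 11 without WT CD44+ NK1.1- replicate 1. Falls among the chemokine receptors numbered 2 without either Ezh2-KO CD44+ NK1.1- replicate and 3 without WT CD44+ NK1.1- replicate 2 or either CD44- NK1.1- library.

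Integrin genes moved in both directions. Of 26 integrin and adhesion genes 4 rose and 2 fell (median 0.00), against 6.43% and 4.89% of all genes. There were 2 rises and 1 fall without either Ezh2-KO CD44+ NK1.1- replicate and 7 falls without WT CD44+ NK1.1- replicate 1. Itga4 (chr2:79255426-79333114), the alpha chain of VLA-4, was at 49.0 CPM in WT CD44- NK1.1-, 76.4 and 74.8 CPM in CD44+ NK1.1- and 193 CPM in CD44+ NK1.1+ cells. It was at 97.3 CPM, 147 and 129 CPM, and 462 CPM in Ezh2-KO (log2 fold change 1.0, SE 0.0822, adjusted p = 0.000883). Its partner Itgb1 rose by 0.89, 0.83 and 0.71 in the same order (log2 fold change 0.82, SE 0.0682, adjusted p = 0.000885). Itgae, the alpha chain that binds E-cadherin, fell from 441 to 896 CPM to 225 to 510.1 CPM (log2 fold change -1.01, adjusted p = 0.00461). The calls of these 3 stood with any library left out, and in both genotypes each gene was highest in CD44+ NK1.1+ cells.

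Of 16 gamma-delta T cell genes tested 9 rose and 1 fell, which is 56.2% and 6.25% (median 0.52), against 6.43% and 4.89% of all genes. Of the 9 rises, 8 were higher in every subset. Trgv1, a variable segment of the gamma chain, rose from 20.8 to 38.1 CPM to 35.2 to 53.1 CPM (log2 fold change 0.51, adjusted p = 0.00841), and 5830411N06Rik is also a member. These were the calls that stood with any library left out. Trgc2, a gamma constant gene, was at 272 CPM in WT CD44- NK1.1-, 264 and 342 CPM in CD44+ NK1.1- and 361 CPM in CD44+ NK1.1+ cells, and at 569.9 CPM, 489.8 and 469.9 CPM, and 469 CPM in Ezh2-KO (adjusted p = 0.0125). Its call and that of Trgv2 were lost without either Ezh2-KO CD44+ NK1.1- replicate (adjusted p up to 0.0538 and 0.0545). The gamma constant genes are close copies, so that the split of reads between them is uncertain. Rises in the list numbered 2 without Ezh2-KO CD44+ NK1.1- replicate 1, 3 without replicate 2, 5 without either CD44+ NK1.1+ library and 11 without the Ezh2-KO CD44- NK1.1- library. The 8 markers of gamma-delta T cells as a cell type, all of which are also in this list, summed to 697 to 1216 CPM in WT and 1108 to 1487 CPM in Ezh2-KO, higher within each subset. Of the 7 that were tested, 2 were called higher and 1 lower. Blk was lower without overlap in every subset, for example at 94.2 CPM in WT and 57.9 CPM in Ezh2-KO CD44- NK1.1- cells. Cd163l1 was lower in both NK1.1- subsets and higher in CD44+ NK1.1+ cells, and Sox13 was lower in CD44- NK1.1- cells alone. Trdc, the delta constant gene, was at 6.41 to 10.5 CPM in WT and 7.33 to 34.7 CPM in Ezh2-KO, where the CD44- NK1.1- library was below WT (adjusted p = 0.0969), and Trdv4 did not pass 0.180 CPM. The part of such cells in these rises was not tested.

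Of 20 genes for the T cell receptor, CD3 and coreceptors 2 rose and 1 fell, and of 9 SLAM receptor and adaptor genes 1 rose and 1 fell, against 6.43% and 4.89% of all genes tested. In the first list 1 rise was left without either Ezh2-KO CD44+ NK1.1- replicate, WT CD44+ NK1.1- replicate 2 or either CD44- NK1.1- library, and 2 fell without either WT CD44+ NK1.1- replicate. In the second no rise was left without any 1 of the CD44+ NK1.1- libraries. Cd247, the zeta chain of the T cell receptor complex, rose from 226 to 533 CPM to 389.6 to 622 CPM, higher within each subset (log2 fold change 0.66, adjusted p = 0.00796). Themis, an adaptor of thymocyte selection, rose by 0.54, 0.51 and 0.45 (adjusted p = 0.00567). Among the 8 markers of double-positive thymocytes it was the only one called, and Rag1, Rag2 and Ptcra did not pass the test. Cd48, a ligand of SLAM family receptors, fell by 0.53 (adjusted p = 0.00740) and Cd200, a co-inhibitory ligand, rose by 0.75 (adjusted p = 0.00614). The calls of Cd247, Themis, Cd48 and Cd200 stood with any library left out.

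Interferon response genes had 8 falls and 1 rise among 30 (26.7% fell, median -0.23), while 4.89% of all genes tested fell and 6.43% rose. Oasl2, of the oligoadenylate synthetase family, was at 88.9 CPM in WT CD44- NK1.1-, 63.7 and 66.3 CPM in CD44+ NK1.1- and 38.3 CPM in CD44+ NK1.1+ cells. It was at 42.9 CPM, 44.8 and 41.0 CPM, and 18.0 CPM in Ezh2-KO (log2 fold change -0.83, SE 0.103, adjusted p = 0.00333). Ifit3 fell from 91.2 to 211 CPM to 73.0 to 142 CPM (log2 fold change -0.46, adjusted p = 0.00689). Both calls stood with any library left out, while the falls in the list numbered 2 without Ezh2-KO CD44+ NK1.1- replicate 2, 3 without replicate 1, 4 without either CD44+ NK1.1+ library, 5 without WT CD44+ NK1.1- replicate 2 and 13 without WT CD44+ NK1.1- replicate 1. The immediate early genes, in which that replicate stood apart, had 3 falls and no rise among 21, and 9 falls and 5 rises without it.

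Of 7 cyclin-dependent kinase inhibitor genes 1 rose and 1 fell, and of 16 BCL-2 family genes, which govern cell survival, 2 rose and 2 fell, against 6.43% and 4.89% of all genes tested. Without either Ezh2-KO CD44+ NK1.1- replicate or either CD44+ NK1.1+ library no inhibitor gene was called, none fell without either CD44- NK1.1- library, and 2 rose without WT CD44+ NK1.1- replicate 1. In the BCL-2 family no rise was left without either Ezh2-KO CD44+ NK1.1- replicate, and 1 without WT CD44+ NK1.1- replicate 2 or any 1 of the CD44- NK1.1- and CD44+ NK1.1+ libraries. No fall in it was left without Ezh2-KO CD44+ NK1.1- replicate 2 or either CD44+ NK1.1+ library, 1 without Ezh2-KO CD44+ NK1.1- replicate 1 or the Ezh2-KO CD44- NK1.1- library, and 4 fell without WT CD44+ NK1.1- replicate 1. Cdkn2a, a cyclin-dependent kinase inhibitor locus often repressed by Polycomb, stayed at 1.21 to 5.16 CPM in WT and 1.31 to 5.2 CPM in Ezh2-KO (adjusted p = 0.473). Cdkn1c rose from 0.531 to 3.73 CPM to 1.76 to 6.26 CPM (adjusted p = 0.0222), a call that was lost without either Ezh2-KO CD44+ NK1.1- replicate, either CD44+ NK1.1+ library or WT CD44+ NK1.1- replicate 2 (adjusted p up to 0.0923). Of 32 cell cycle and replication genes 1 rose and 1 fell, and without WT CD44+ NK1.1- replicate 1 these counts were 2 and 15.

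**Figure D5:**
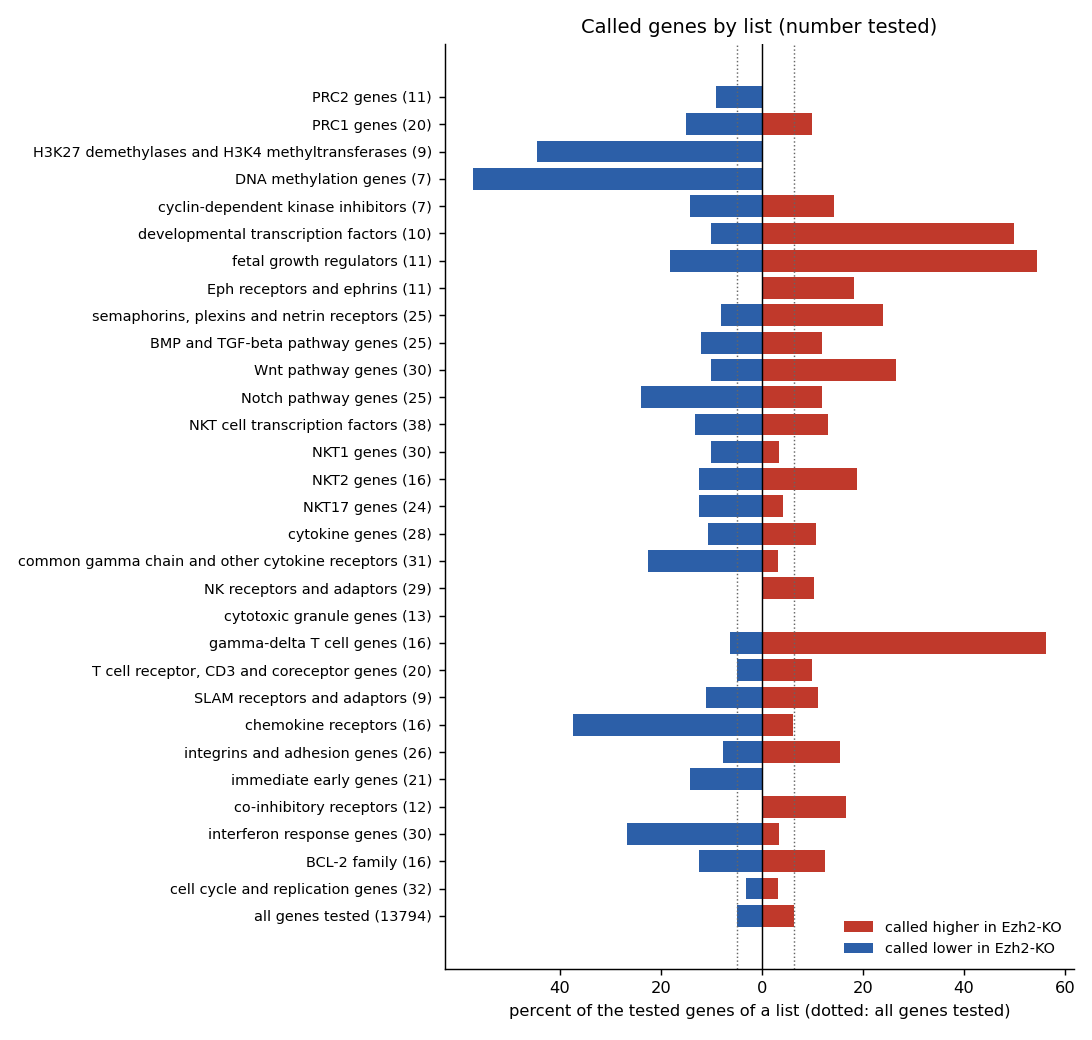
Percent of the tested genes of each list (number in parentheses, y axis) that were called higher (right, red) or lower (left, blue) in Ezh2-KO; dotted lines mark the shares over all 13794 genes tested, 6.43% and 4.89%. Called genes of mixed direction are included. Developmental transcription factors are shown for the 10 of 89 that passed the filter, so that their bars are no share of the list. The same limit holds for other lists of which only part passed, such as semaphorins, plexins and netrin receptors (25 of 40). Apart from the developmental factors, gamma-delta T cell genes and fetal growth regulators have the largest shares of rises among tested genes. DNA methylation genes, the list of H3K27 demethylases and H3K4 methyltransferases (which also takes in Ash1l), and chemokine receptors have the largest shares of falls.

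The size of the effect varied between subsets within 1 direction. The median difference of the 860 rises was 0.63 on the log2 scale in CD44- NK1.1-, 0.90 in CD44+ NK1.1- and 0.68 in CD44+ NK1.1+ cells, and that of the 667 falls was -0.40, -0.45 and -0.38. The difference was furthest from 0 in CD44+ NK1.1- cells for 50.3% of the rises and 40.6% of the falls. That subset had more libraries and so more weight in the calls. In WT cells, 65.3% of the rising genes were highest in CD44- NK1.1- cells, against 35.2% of all genes tested, and 70.9% of the falling genes were highest in CD44+ NK1.1+ cells, against 40.6% of all. WT levels enter the differences that chose these genes, so that the shares are a description.

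In a model with a mean for each group, which left 2 residual degrees of freedom, calls within single subsets were fewer. CD44- NK1.1- cells had 25 rises and 8 falls (0.181% and 0.0580% of genes tested), CD44+ NK1.1- cells 522 and 160 (3.78% and 1.16%), and CD44+ NK1.1+ cells 109 and 22 (0.790% and 0.159%). The subsets with 1 library per genotype borrow the spread of CD44+ NK1.1- cells in this model, so these counts do not rank the subsets. A difference of the genotype effect between subsets was called for 1 gene, Spink5, of 13794 (0.00725%), and 673 genes had an unadjusted p under 0.05 for it. Without 1 of the Ezh2-KO CD44+ NK1.1- replicates no gene was called. Without WT CD44+ NK1.1- replicate 1 or 2 the spread rested on the close Ezh2-KO pair alone, and 1317 or 3916 genes were called. The data therefore give few differences between subsets that can be named, and they do not show that the effect was equal in the 3 subsets.

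The patterns that follow were chosen after their values were seen. Of the 13 protein-coding genes of the mitochondrial genome, 12 fell, by 0.41 to 0.70 on the log2 scale, and ND3 did not pass the test (adjusted p = 0.367). The gene of cytochrome c oxidase subunit 1, COX1, was at 13115 CPM in WT CD44- NK1.1-, 12960.3 and 11923 CPM in CD44+ NK1.1- and 16994 CPM in CD44+ NK1.1+ cells. It was at 7661 CPM, 9431 and 7595 CPM, and 14109 CPM in Ezh2-KO (adjusted p = 0.0137). These 13 genes took 4.22% to 4.85% of all counts in WT and 2.77% to 4.17% in Ezh2-KO, lower within each subset. With 1 library left out the number of falls was 3 without Ezh2-KO CD44+ NK1.1- replicate 2, 8 without the Ezh2-KO CD44- NK1.1- library, and 9 to 12 otherwise. All 13 were below 0 in each of these fits.

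Genes that rose lay beside each other in places. Of the rising genes with a symbol, 26.9% were next to another tested gene that rose, against 12.1% of all tested genes. Of the falling genes, 17.0% were next to another that fell, against 9.49%. On the X chromosome Arxes2, Arxes1, Bex2, Bex4, Tceal8 and Bex1 rose as a run of neighbours between positions 135993820 and 136215513, and Armcx1, Armcx6, Armcx3 and Armcx2 rose as another. Bex1, a small adaptor gene known from neurons, was at 0.386 to 1.48 CPM in WT and 0.955 to 3.48 CPM in Ezh2-KO (log2 fold change 1.57, adjusted p = 0.00367), higher within each subset. Members of both runs are paralogs, which can share reads.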

How the data were processed

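RNA from sorted thymic NKT cells was sequenced in 8 libraries. The authors deposited raw counts per gene, called with CASAVA, aligned to mm10 with Subread (1.4.3-p1) and counted with featureCounts, per the submitters' processing notes. Neither the annotation nor how strand was set is named in the notes. Of 27179 gene identifiers, 25275 matched a RefSeq symbol. From the counts, edgeR (4.0.16, R 4.3.3) fitted subset and genotype with TMM scaling, its expression filter and the robust quasi-likelihood test, and p-values were adjusted by Benjamini-Hochberg over 13794 genes. A gene was called at an adjusted p under 0.05. Differences within a subset are of log2(CPM + 0.5). A second model with 6 group means tested whether the genotype effect differed between subsets. The fits were tested on simulated data. Limma (3.58.1) and DESeq2 (1.42.0), other scalings and filters, and the omission of each library were tried as alternatives. The labels call the CD44+ NK1.1- pairs biological replicates, and p-values rest largely on the spread within these pairs and around the additive model. The pairs differed by more than sampling noise and were counted as separate samples.

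Genes named individually were a set of Polycomb and NKT cell genes, the 15 largest rises and 15 largest falls with at least 16 CPM in the higher genotype, without overlap in any subset, and up to 6 genes of smallest p from each list. Names outside this rule were chosen after their values were seen. The genes and lists were chosen with earlier results of these data known. Some results are not reported here.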

Additional observations from a re-analysis of the deposited data

Results flagged for a closer look

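The effect of Ezh2 loss on Spink5, a serine protease inhibitor gene, differed between subsets by the test of that difference (adjusted p = 0.0128, edgeR quasi-likelihood F test). Its level in CD44- NK1.1- cells was 33.6 CPM in WT and 14.7 CPM in Ezh2-KO. In CD44+ NK1.1- cells it was 0.0902 and 0.129 CPM in WT and 16.6 and 15.2 CPM in Ezh2-KO. In CD44+ NK1.1+ cells it was 0.0965 CPM in WT and 0.302 CPM in Ezh2-KO. The log2 differences in this order were -1.17, 4.75 and 0.43. Spink5 was thus high in CD44- NK1.1- cells of both genotypes and, among CD44+ NK1.1- cells, in the Ezh2-KO libraries alone. The adjusted p was 0.1 without Ezh2-KO CD44+ NK1.1- replicate 1 and 0.0823 without replicate 2.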

How the results depend on the processing

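With 1 library left out, rises numbered 342 to 1273 and falls 147 to 1521. The share of calls with 1 direction in every subset, 97.8% with all libraries, was 98.1% to 99.4% with 1 of the 4 CD44+ NK1.1- libraries left out. A test against a fold of 1.5 left 233 rises and 31 falls. The mean of the 3 subset effects gave 636 rises and 315 falls. The 4 CD44+ NK1.1- libraries alone gave 554 and 150, and the other 4 libraries gave 79 and 40. The cause of these moves was not tested beyond the fewer libraries. Scaling by library size gave 1046 and 490, so that 68.1% of calls were rises against 56.8%. Of genes called higher at an adjusted p under 0.01 in CD44+ NK1.1- cells, 90.9% kept their direction. Genes with a difference between subsets numbered 0 to 3916 with 1 library left out, in fits with 1 residual degree of freedom. The log2 fold changes that changed sign belonged to genes that were not called. Suz12 was at -0.0657 at the lowest with 1 library left out, at 0.00670 with library size scaling, 0.0160 without the CD44+ NK1.1- libraries, 0.00146 without WT CD44+ NK1.1- replicate 2 and 0.00825 without Ezh2-KO CD44+ NK1.1- replicate 2. Cdkn2a was at -0.37 at the lowest and 0.00963 without the Ezh2-KO CD44- NK1.1- library. Zbtb16 was at -0.25 at the lowest, 0.0525 without the CD44+ NK1.1- libraries, 0.0289 without the WT CD44- NK1.1- library and 0.0402 without the Ezh2-KO one. Spink5 was at -1.03 without the CD44+ NK1.1- libraries. Of 1880 checks on 99 called genes, 1532 kept the call, 348 kept the direction only and 0 reversed. These checks share libraries and are not independent of each other. No paired analysis was possible because the labels give no replicate numbers that tie a WT to an Ezh2-KO library. The numbers used here follow the order of deposit. Single libraries in the CD44- NK1.1- and CD44+ NK1.1+ groups limit what can be said of each subset, and 3 counts limit genes below 0.151 CPM.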
